A study of Mus musculus with 6 samples.

Results

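The genes described here are the non-coding genes of mouse islets whose symbol ends in Rik, the ending of names first given to RIKEN cDNA clones. They were selected on 3 properties: a symbol with that ending, an annotation as antisense, lincRNA, processed transcript or bidirectional promoter lncRNA, and a mean raw count of 50 or more over the 6 libraries. Of the 15286 genes in the count table, 951 had such a symbol, 625 of these were of the 4 gene types, and 142 reached the mean count. The mean count chose these 142 genes, so their levels are given as a description and carry no test. The table covers pancreatic islets of male mice of C57Bl/6 N background, 12 weeks old, that had fasted overnight, and the islets recovered for 2 h at 3 mM glucose before RNA was taken. The groups were 3 P07Rik^flox/flox mice (flox/flox, libraries KO2775, KO2776 and KO2938) and 3 wildtype (WT) littermates, with libraries WT2772, WT2777 and WT2931 and no altered allele. The flox/flox mice carried on both alleles of the lncRNA gene A830019P07Rik a cassette in the first intron that ends its transcription early, in all cells and not only in islets. WT2772, WT2777, KO2775 and KO2776 came from litter 1, and WT2931 and KO2938 from litter 2. A830019P07Rik was not analysed here, and genotypes were taken as labelled.

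Antisense lncRNAs are transcribed from the strand opposite another gene, often across its promoter, introns or terminal exon, and lincRNAs from the stretches between genes. Some act on the chromatin or the transcript of the neighbouring gene, some host small RNAs in their exons or introns, and for many no function is known. Islets hold β-cells, α-cells and other endocrine cells, and lncRNAs in them are known for expression that differs between cell types and with glucose.

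Of the 142 genes, 90 were annotated as antisense, 34 as processed transcripts, 15 as lincRNAs and 3 as bidirectional promoter lncRNAs. With overlapping exons of a gene's transcripts merged, 22 had a single exon. The 142 genes lay on 20 chromosomes, and their exons covered a median of 2166.5 bp, from 363 to 13854 bp. The closest neighbours among them were 4930512B01Rik and 4931403G20Rik, 7155 bp apart on chromosome 12. The mean count ran from 50.7 to 1388, with a median of 124, and 88 genes had a mean of 100 or more. Just inside the count of 50 stood C230038L03Rik with a mean of 52.7, 4931413K12Rik with 50.8 and 1700094J05Rik with 50.7. Just outside stood 1700120B22Rik with 49.8, 4933429H19Rik with 49.7 and A730017L22Rik with 49.2. Counts of C230038L03Rik alone ran from 35 in KO2938 to 63 in KO2775, a wider range than that of these 6 means.

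The WT libraries WT2772, WT2777 and WT2931 totalled 698588, 793596 and 690726 counts. The flox/flox libraries KO2775, KO2776 and KO2938 totalled 646141, 611181 and 800255 counts. The labels give a depth of about 30000000 reads per library, of which these totals are 2.04% to 2.67%, so CPM and shares refer to the small part of the reads that was assigned to genes. The 142 genes held 4.09%, 3.61% and 4.03% of the counts in the WT libraries and 4.23%, 3.65% and 2.65% in the flox/flox libraries, in the same order. KO2938 thus gave the lowest share and WT and flox/flox values overlapped. AY036118, a gene annotated as a lincRNA on chromosome 17, took 41.0% of the counts of KO2938 and between 13.6% and 22.1% of those of the other libraries. The part of AY036118 in the lower share of KO2938 was not tested. Levels are given as CPM, counts scaled to a common library total after TMM normalization, or as RPKM, which is CPM per kb of annotated exon, where genes are compared with each other.

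The strand on which the counts lie was examined before the antisense genes were read. The libraries were strand-specific, and the authors counted reads with HTSeq at its default strand setting, which assigns a read to a gene only when it maps to that gene's strand. Insulin is the most abundant message of islets, and Ins2 had 157, 205 and 158 counts in the WT libraries and 165, 128 and 96 in the flox/flox libraries. The 6 hormone genes Ins1, Ins2, Gcg, Sst, Ppy and Iapp together took 0.0489% of all counts, and 65 ribosomal protein genes took 0.0727%. These messages, abundant in islets, thus held a small share of the counts. An exon opposite an exon of another gene was found in 39.7% of the genes matched to the annotation, and those genes held 86.9% of the matched counts. Few counts on abundant messages and many on genes opposite other exons are what a table would hold if reads had been assigned to the strand opposite their transcript. The strand setting itself was not tested, since the reads were not analysed here. If reads were so assigned, each level, rank and fold change given below for a Rik-named gene is that of RNA from the other strand, exons and introns of the gene opposite included. The values given for the opposite genes would likewise be those of RNA from the strand opposite to them. Each value is therefore given as a level of assigned reads, not of a known transcript.

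The other listed markers were low as well. All 8 β-cell markers were measured, with summed counts from 209 in KO2938 to 439 in WT2777 and Ins2 as the most abundant. Of 14 acinar markers 7 were measured, at summed counts from 12 in KO2776 to 49 in WT2777, led by Pnlip, and the others were not analysed here. Summed counts lay between 31 and 133 for 3 of 6 α-cell markers led by Gcg, 7 and 22 for 2 of 3 δ-cell markers led by Rbp4, and 10 and 28 for both PP cell markers, led by Ppy. They lay between 14 and 36 for Krt7, the 1 of 5 ductal markers measured, 4 and 18 for 4 of 5 endothelial markers led by Plvap, and 2 and 7 for 2 of 7 stromal markers led by Acta2. For 3 of 6 immune markers led by Cd68 they lay between 5 and 17, and for 3 of 4 neural and Schwann cell markers led by S100b between 3 and 11. With so few counts assigned to them, the cell make-up of the islets could not be read from the markers.

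Among the Rik-named genes, 130 of 142 (91.5%) had an exon that overlaps an exon of a gene on the opposite strand. This share was 54.9% for the 483 Rik-named genes of the same types with a mean count under 50. It was 89.1% for 560 genes of the same types with other names and 88.9% for 36 Rik-named protein-coding genes, both at a mean count of 50 or more. The overlap was therefore common to well-counted genes and not particular to the Rik-named ones. Turned around, 130 of the 395 Rik-named non-coding genes with an opposite exon (32.9%) reached the count of 50, against 12 of the 230 without (5.22%). These shares are descriptions, since the mean count chose the genes.

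The gene with the longest exon overlap was protein-coding for 122 of the 130 genes and of another type for 8. The overlap and any further opposite exons took a median of 24.9% of the exon bases of the Rik-named gene, from 3.30% to 99.97% for 9430098F02Rik, which lies opposite the last exon of Ppp2ca. Of the 122 protein-coding genes, 100 had coding exon, 47 had a 5′ UTR and 46 a 3′ UTR over the exons of the Rik-named gene. The Rik-named gene reached over the 3′ end of the opposite gene in 46 cases and over its 5′ end in 39, lay inside it in 37 and spanned it in 8. No arrangement on the opposite strand was thus shared by all.

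In 112 of the 130 pairs the opposite gene was measured as well. Per kb of exon, the Rik-named gene stood above the opposite gene in 111 of 112 pairs, and by 10 times or more in 88. The median was 86.4 RPKM for the Rik-named genes and 2.00 RPKM for the opposite genes, with a median ratio of 58.7. The exception was 6330403L08Rik, singled out after its values were seen, with 43.4 RPKM against 52.1 RPKM for Pdgfa, a growth factor gene. The Rik-named genes were chosen for a high count and the opposite genes were not, so nothing is read from the direction of this difference.

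**Figure D1:**
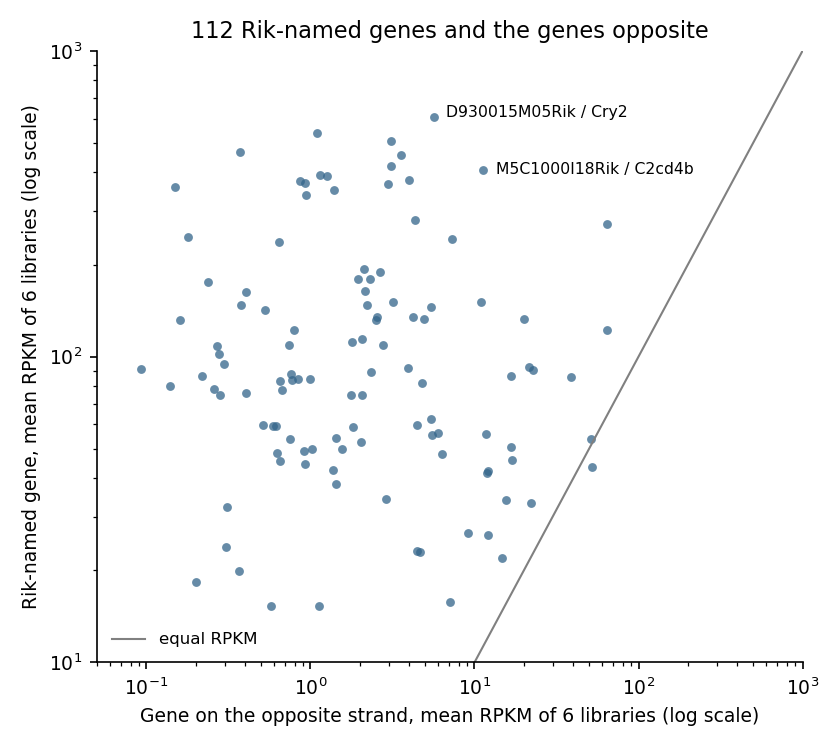
Mean RPKM over the 6 libraries (both axes logarithmic) of 112 Rik-named non-coding genes against the gene on the opposite strand with the longest exon overlap; each point is a pair and the line marks equal values. In 111 pairs the Rik-named gene lies above the line.

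The sequence at these overlaps is shown so that the strand of the opposite gene's introns can be seen. An intron begins with GT and ends with AG on the strand of its own gene, so the opposite strand reads CT and AC at its ends. Of 189 ends of coding exons that lie with 30 bases on either side inside an exon of a Rik-named gene, in 66 of the genes, 100 had CT and 89 had AC as the intron bases next to the coding exon. These ends were selected for lying inside an exon of a Rik-named gene, so the tally describes the annotation and tests nothing. A930037H05Rik is shown at both ends of a coding exon of Rnf213, which encodes a large ubiquitin ligase, at chr11:119461962-119462021 and chr11:119461861-119461920, minus strand. B230206H07Rik is shown at an exon end of Eps8l2, at chr7:141361351-141361410, minus strand, and D930015M05Rik at an exon end of the circadian clock gene Cry2, at chr2:92422848-92422907, plus strand. All are of build GRCm38, read 5′ to 3′ on the strand of the Rik-named gene from the annotated transcripts, with the coding exon of the opposite gene in capitals.
A930037H05Rik, at the 3′ end of the exon on the strand of Rnf213: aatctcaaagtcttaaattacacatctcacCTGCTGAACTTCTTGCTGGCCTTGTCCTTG
A930037H05Rik, at the 5′ end of the exon on the strand of Rnf213: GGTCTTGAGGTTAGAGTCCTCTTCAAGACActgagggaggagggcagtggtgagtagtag
B230206H07Rik: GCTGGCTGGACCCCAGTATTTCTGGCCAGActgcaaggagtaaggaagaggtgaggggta
D930015M05Rik: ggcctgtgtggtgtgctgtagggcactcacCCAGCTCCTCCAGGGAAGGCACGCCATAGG

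**Figure D2:**
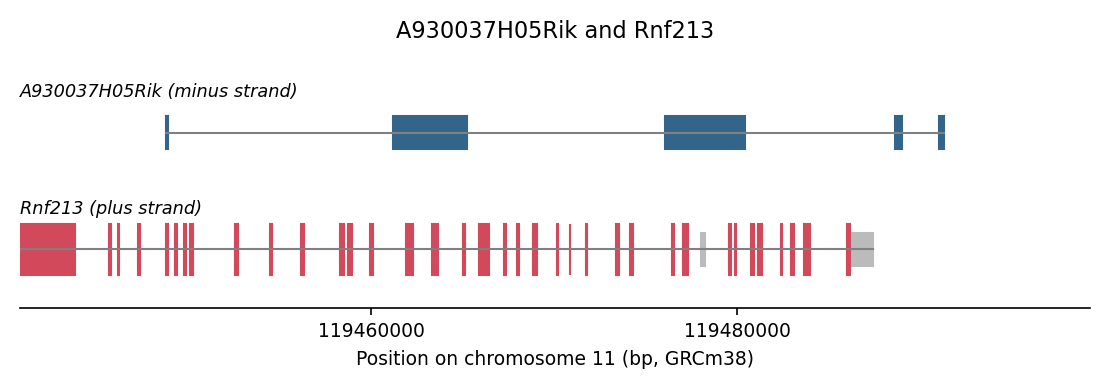
Map of A930037H05Rik (minus strand, exons in blue) and the 3′ part of Rnf213 (plus strand, coding exons in red, non-coding exons in grey) on chromosome 11, to scale in bp of build GRCm38. Of the 67 coding exons of Rnf213, 10 lie over exons of A930037H05Rik, which has 5 exons and reaches past the 3′ end of Rnf213. Overlapping exons of each gene's transcripts are merged.

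The gene with the most counts was E530011L22Rik (ENSMUSG00000097820, chromosome 9 from 121754662 to 121759943), which covers the 3′ end of Nktr, a gene for a cyclophilin-related protein of natural killer cells. Its counts were 1486, 1564 and 1295 in the WT libraries and 1406, 1247 and 1329 in the flox/flox libraries, each in the order given for the totals. Nktr had 25, 22 and 11 counts in the WT and 16, 18 and 7 in the flox/flox libraries. Between these genes, nearly all counts were thus assigned to the Rik-named strand. 4930524O07Rik (ENSMUSG00000090207, chromosome 9 from 106891547 to 106895182), at the 3′ end of the guanine nucleotide exchange factor gene Dock3, followed with 1087, 911 and 637 counts in WT and 974, 691 and 559 in flox/flox libraries. In both groups its lowest library was that of litter 2.

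Counts rise with length, and per kb of exon the order differed. D930015M05Rik (ENSMUSG00000084781), with exons of 1190 bp over Cry2, stood highest at 608 ± 89.5 RPKM (SD, n = 6). 1700126G02Rik, inside the ethanolamine kinase gene Etnk1, had 538 ± 58.5 RPKM, and 4930524O07Rik 506 ± 105 RPKM. Each of these means lay within the SD of the one before it. 1700099I09Rik, inside the kinase gene Mast4, followed at 468 ± 49.6 RPKM, and 1700101I11Rik at 457 ± 43.7 RPKM. 1700101I11Rik covers the 5′ end of Gabarapl1, which encodes an autophagy protein. 6430503K07Rik, with exons of only 476 bp, had 422 ± 126 RPKM, and its SD was the widest of the 6. All 142 genes lay between 15.3 and 608 RPKM, with a median of 89.5. By gene type the median was 88.7 RPKM for antisense genes, 94.7 for lincRNAs, 86.7 for processed transcripts and 54.0 for the 3 bidirectional promoter lncRNAs.

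Further genes with many counts are given as CPM, each for itself. The first, 4930488L21Rik, over the 5′ end of the G protein gene Gnao1, had a mean of 942 ± 95.3 (SD, n = 6). 9930014A18Rik, inside Fam84b, had 933 ± 57.2, and 4930470G03Rik, opposite the zinc finger gene Zscan26, had 927 ± 88.6. B230398E01Rik, at the 3′ end of Rfx5, a regulator of MHC class II genes, had 820 ± 91.6. In each of these 4 genes the SD was small beside the mean. 1500004A13Rik, opposite the pseudogene 5830417I10Rik and with the longest exons at 13854 bp, had 663 ± 51.2 CPM but only 47.9 RPKM. Over the 142 genes the coefficient of variation across the 6 libraries had a median of 14.2%, against 22.7% over all 5478 tested genes, and ran from 4.35% to 48.6%. Since the variation of counts falls as the count rises, the rule on the mean count favours a lower median, and nothing is read from it.

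The comparison of flox/flox with WT mice asked whether any of these lncRNA genes differed with the genotype at A830019P07Rik. All 142 genes passed the low-count filter. The test was the quasi-likelihood test of edgeR, adjusted by Benjamini-Hochberg over all 5478 tested genes. By it, 0 of the 142 had an adjusted p-value under 0.05 (edgeR), where the background over all genes was 0%, and DESeq2 also called 0. At an unadjusted p-value under 0.05 there was 1 of 142 (0.704%), against 1.84% of all genes. The log2 fold changes, flox/flox over WT, lay between -0.29 and 0.38, with a median of 0.01 over the 142 genes and -0.01 over all genes. Their median standard error was 0.18. The CPM of the groups did not overlap for 7 of 142 genes (4.93%), against 7.43% of all genes, so the count was no larger than in the background.

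The gene with the smallest p-value was 4930565N06Rik (ENSMUSG00000084834, chromosome 16 from 36880519 to 36897189), an antisense gene within the span of the Golgi gene Golgb1. It had 300.5, 363 and 338 CPM in WT and 392, 386 and 495 CPM in flox/flox libraries. The groups did not overlap, and KO2938 was the highest. Its log2 fold change was 0.34 (standard error 0.16, adjusted p = 1.00, edgeR) and did not pass the test. 4930581F22Rik, over the 5′ end of the sialyltransferase gene St3gal4, had 89.2, 70.1 and 78.4 CPM in WT and 111, 104 and 94.4 CPM in the flox/flox group. Here too the groups did not overlap, and the log2 fold change was 0.38 (standard error 0.19, adjusted p = 1.00, edgeR). 1700060J05Rik, inside the choline transporter gene Slc44a1, had a log2 fold change of 0.31. On the other side, 9430098F02Rik had -0.25, 0610040F04Rik -0.29 and 9530082P21Rik -0.18. Over the alternatives these negative fold changes ran between -0.48 and -0.04. The positive ones above ran between 0.11 and 0.48, and none of either changed sign. 0610040F04Rik lies over the 5′ end of the repressor gene Bhlhe40 and 9530082P21Rik over the 3′ end of Flywch1. WT and flox/flox CPM overlapped for each of the last 4 genes.

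E530011L22Rik was among the 7 genes without overlap, with 2039, 2030 and 1751 CPM in WT and 2081, 2196 and 2323 CPM in flox/flox libraries. Its log2 fold change was 0.18 (standard error 0.14, adjusted p = 1.00, edgeR), within the spread of the test. When litter was added to the model as a block, 0 of 142 genes passed, against 0.0548% of all genes, and the smallest adjusted p-value among the 142 was 0.757. The interaction of litter and genotype, which asks whether the change between genotypes differed between litters, was passed by 0 of 142 against 0.128% of all genes (edgeR).

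The litters were compared to describe how the genes varied among mice. In a model with litter and genotype, 31 of 142 genes (21.8%) passed for litter at an adjusted p-value under 0.05 by edgeR, against 11.3% of all genes. Of these, 12 were higher in litter 2 (8.45%, background 6.08%) and 19 were lower (13.4%, background 5.24%). The median log2 fold change, litter 2 over litter 1, was -0.08 over the 142 genes and -0.01 over all genes. It rested on KO2938, the library with 41.0% of its counts on AY036118: without KO2938 it was -0.0045 over the 142 genes and -0.0058 over all genes, and without WT2931 it was -0.12 and -0.01. The CPM of the litters did not overlap for 66 of 142 genes (46.5%), against 32.9% of all genes. The mean count that chose the genes was taken over both litters, and 9 of the 142 had a mean under 50 in 1 litter, so for them a difference between litters is partly set by the choice. These hold 4 of the 31 calls, and of the other 133 genes 27 passed (20.3%), 10 higher and 17 lower. Whether the larger shares belong to these genes or to their higher counts was not tested. Litter 2 is 2 mice, so litter cannot be told apart from anything else those mice shared, and fewer cells of a type and less RNA per cell cannot be told apart in whole islets. The number of calls depended on the test and on WT2931: it was 18 with DESeq2, 16 without WT2931 and 24 without KO2938, where the remaining mouse of litter 2 is assumed to vary like the others. Scaled by library size only it was 11, with 2 higher and 9 lower, a setting under which the median over all genes moved from -0.01 to -0.19 on the log2 scale. The shares of all genes given above are those of the main fit. Whether the larger share of the 142 genes holds under these other settings is therefore not shown.

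The genes lower in litter 2 are given first. A930037H05Rik (ENSMUSG00000109408, chromosome 11 from 119448788 to 119491298), opposite Rnf213, had 1430, 1117, 1395 and 865 CPM in WT2772, WT2777, KO2775 and KO2776 of litter 1 and 545 and 608 CPM in WT2931 and KO2938 of litter 2. The litters did not overlap, and within each genotype the library of litter 2 was the lowest. The log2 fold change was -1.06 (standard error 0.15, adjusted p = 9.5e-07, edgeR). Reads assigned to Rnf213 numbered 29, 29, 35 and 32 in litter 1 and 45 and 20 in litter 2. Their log2 fold change was 0.10 (adjusted p = 0.851, edgeR) and did not pass the test. Whether they are reads of the Rnf213 message was not tested.

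M5C1000I18Rik (ENSMUSG00000055125, chromosome 9 from 67758712 to 67760230) is a lincRNA with 1 merged exon over the 5′ end of C2cd4b, a gene at a diabetes risk locus. It had 727, 648, 706 and 914 CPM in the libraries of litter 1, in the order above, and 416 and 309 CPM in WT2931 and KO2938. The 2 libraries of litter 2 were the lowest, and the log2 fold change was -1.03 (standard error 0.15, adjusted p = 9.5e-07, edgeR), with a range from -1.38 without WT2931 to -0.72 without KO2938. C2cd4b, with a mean of 10.3 counts, had a log2 fold change of -0.60 and did not pass (adjusted p = 0.426, edgeR).

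9530052E02Rik (ENSMUSG00000096938, chromosome 8 from 11007850 to 11054541) reaches over the 5′ end of Irs2, the insulin receptor substrate that supports β-cell mass. It had 232, 234, 252 and 291 CPM in litter 1 and 153 and 110 CPM in WT2931 and KO2938. The log2 fold change was -0.91 (standard error 0.16, adjusted p = 4.5e-05, edgeR), with both libraries of litter 2 below the other 4. Its size rested in part on KO2938, without which it was -0.60 (adjusted p = 0.0414, edgeR), and it reached -1.29 without WT2931, with adjusted p-values from 4.9e-06 to 0.0414 over the alternatives. E230016M11Rik (ENSMUSG00000087231), over the 5′ end of the DNA damage response gene Gadd45a, had 454, 391, 413 and 326 CPM in litter 1 and 274 and 229 CPM in litter 2. Its log2 fold change was -0.66 (standard error 0.14, adjusted p = 8.0e-04, edgeR), and over the alternatives the adjusted p-value ran from 2.0e-04 to 0.0519, the latter by library size only, where it did not pass. The opposite genes Irs2, with 4 to 13 counts a library, and Gadd45a, with 16 to 38, did not pass the test for litter (adjusted p = 0.589 and 0.467, edgeR).

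4930447N08Rik, inside the cGMP phosphodiesterase gene Pde5a, had 376, 305, 336 and 416 CPM in litter 1 and 208 and 234 CPM in litter 2, a log2 fold change of -0.69 (adjusted p = 5.0e-04, edgeR). 1700030A11Rik, opposite another Rik-named gene, 4930539E08Rik, had 126, 109, 113 and 109 CPM in litter 1 and 63.5 and 54.2 CPM in litter 2, a log2 fold change of -0.95 (adjusted p = 7.0e-04, edgeR). Both genes were lower in each library of litter 2 than in any of litter 1. 1700030A11Rik had a mean count of 78.5 in litter 1 and 39 in litter 2, so it reached 50 through the litter in which it is high, and its fold change is a description. Among the genes with the most counts, 4930524O07Rik was lower in litter 2 by a log2 fold change of -0.54 (adjusted p = 0.00356, edgeR) and A730081D07Rik, opposite the glycosyltransferase gene Gcnt2, by -0.43 (adjusted p = 0.0244, edgeR). B230206H07Rik was higher by 0.41 (adjusted p = 0.0207, edgeR). These calls were lost under some alternatives, over which the adjusted p-value reached 0.134 for 4930524O07Rik, 0.509 for A730081D07Rik and 0.705 for B230206H07Rik. Their log2 fold changes ran from -0.74 to -0.44 for 4930524O07Rik, from -0.67 to -0.21 for A730081D07Rik and from 0.23 to 0.56 for B230206H07Rik. Opposite 4930524O07Rik, Dock3 had 37, 45, 40 and 26 counts in litter 1 and 20 and 16 in litter 2, a log2 fold change of -0.97 (adjusted p = 0.0183, edgeR). Of the 112 opposite genes 54 were tested, 6 of these passed for litter, a share close to the 11.3% of all genes, and for 3 of the 6 the Rik-named gene passed as well.

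**Figure D3:**
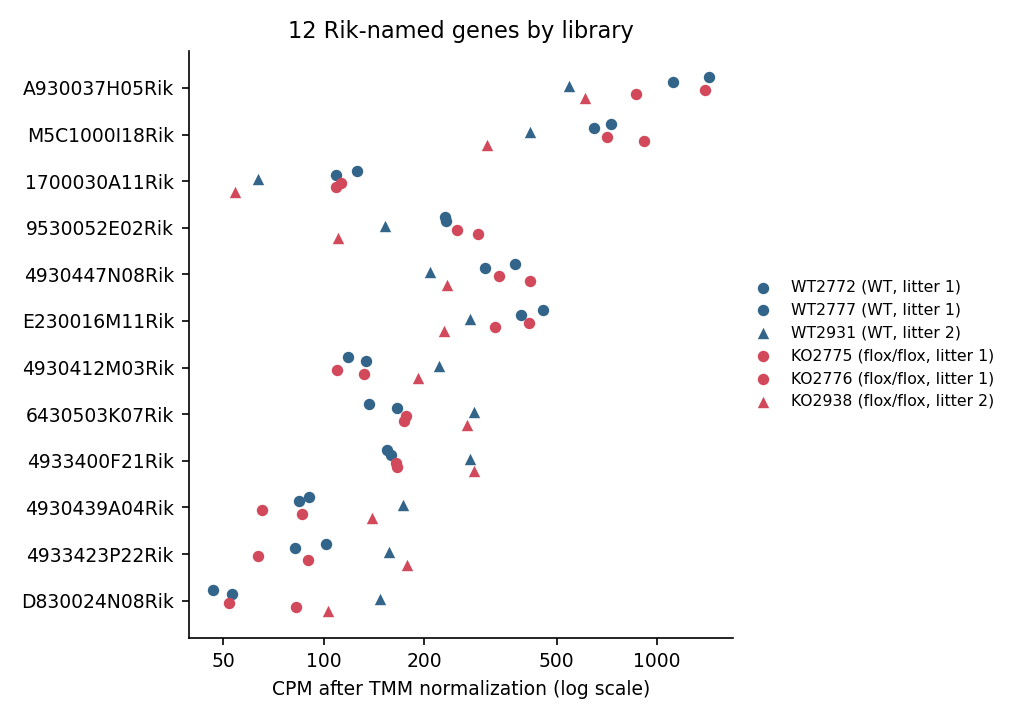
CPM after TMM normalization (logarithmic axis) in each of the 6 libraries for the 12 Rik-named genes with the smallest p-values for litter; colour gives the genotype and shape the litter, and each symbol is 1 mouse. For all 12 genes both libraries of litter 2 lie on the same side of the 4 libraries of litter 1, with WT and flox/flox mice mixed. The genes were chosen by these p-values in the same libraries, so this separation follows largely from the choice. The litters did not overlap for 46.5% of the 142 genes and 32.9% of all tested genes.

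The genes were also split by whether an exon lies opposite another exon. Of the 12 Rik-named genes without an exon opposite another exon, 7 passed for litter (58.3%, background 11.3%), 6 of them higher and 1 lower in litter 2, where 6.08% of all genes were higher and 5.24% lower. Of the 130 with an opposite exon 24 passed (18.5%), 6 higher and 18 lower. These background shares are those of the main fit, and none is given for the library-size fit or the fit without WT2931. By library size only, 1 of the 12 was higher and 1 lower, and 1 of the 130 was higher and 8 lower. Without WT2931, 3 of the 12 were higher and 1 lower, and 2 of the 130 were higher and 10 lower. The median log2 fold change for litter was 0.47 over the 12 and -0.10 over the 130. Leaving out genes with a mean under 50 in 1 litter, such as 4931413K12Rik with 44.5 in litter 1 and 63.5 in litter 2, 6 of 10 without an opposite exon passed, 5 higher and 1 lower. This split was chosen after the values were seen and the difference was not tested. 11 of the 12 genes lie with all exons in introns of the opposite gene, and 2310015A10Rik, on chromosome 12, has no gene on the opposite strand. 2310015A10Rik had 114, 63.6, 108 and 68.7 CPM in litter 1 and 63.5 and 59.4 CPM in litter 2, and it did not pass the test for litter (adjusted p = 0.127, edgeR). Its mean count was 61 in litter 1 and 40.5 in litter 2. It thus reached 50 through the litter in which it is high, and its values are a description.

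6430503K07Rik (ENSMUSG00000053545, chromosome 2 from 147187424 to 147188407) lies inside Nkx2-2, which encodes a transcription factor that β-cells need to form and keep their identity. Its exons do not overlap those of Nkx2-2. It had 137, 166, 176 and 174 CPM in WT2772, WT2777, KO2775 and KO2776 and 283 and 269 CPM in WT2931 and KO2938. The libraries of litter 2 were the highest, and the log2 fold change was 0.76 (standard error 0.14, adjusted p = 1.1e-04, edgeR). Without WT2931 the adjusted p-value was 0.0505 (edgeR), with a log2 fold change of 0.62, and by library size only it was 0.199. Over all alternatives it ran from 3.7e-05 to 0.199.

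4933400F21Rik (ENSMUSG00000102009, chromosome 1 from 89650529 to 89683908), inside the GTPase-activating protein gene Agap1, had 155, 160, 164 and 166 CPM in litter 1 and 274 and 283 CPM in litter 2. Values within each litter were close, and the log2 fold change was 0.79 (standard error 0.14, adjusted p = 4.6e-05, edgeR). By library size only it did not pass, and over the alternatives its adjusted p-value ran from 1.5e-05 to 0.172. 4933423P22Rik, inside the receptor phosphatase gene Ptprj, had 102, 81.8, 63.7 and 89.8 CPM in litter 1 and 157 and 178 CPM in litter 2, a log2 fold change of 0.99 (adjusted p = 5.8e-05, edgeR). 4930439A04Rik, inside the inositol phosphatase gene Inpp4a, had 90.6, 84.4, 65.1 and 86.3 CPM in litter 1 and 173 and 140 CPM in litter 2, a log2 fold change of 0.94 (adjusted p = 8.8e-05, edgeR). In each of these genes both mice of litter 2 lay above the other 4. The adjusted p-value of 4930439A04Rik ran from 9.7e-06 to 0.0658 over the alternatives and did not pass by library size only.

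4930412M03Rik, a lincRNA inside Rai1, rose from between 109.5 and 134 CPM in litter 1 to 222 and 192 CPM in litter 2, a log2 fold change of 0.75 (adjusted p = 4.2e-04, edgeR). D830024N08Rik had 46.7, 53.2, 51.8 and 82.8 CPM in litter 1 and 147 and 103 CPM in litter 2. Its mean count was 39.2 in litter 1 and 84 in litter 2, so it reached 50 through the litter in which it is high, and its fold change is a description. Its log2 fold change was 1.14 (standard error 0.21, adjusted p = 7.8e-05, edgeR). The call rested on WT2931: without it the log2 fold change was 0.64 and the adjusted p-value 0.249 (edgeR), and those of 4930412M03Rik were 0.68 and 0.0600 (edgeR). Over all alternatives the adjusted p-values ran from 4.7e-07 to 0.249 for D830024N08Rik and from 1.9e-04 to 0.212, by library size only, for 4930412M03Rik.

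Among the 142 genes, 3 hold annotated miRNA genes on the same strand. 1700016P03Rik (ENSMUSG00000085609, chromosome 11 from 75172560 to 75177633) holds Mir212 and Mir132 in an intron, a cluster known to respond to CREB signalling in neurons and islets. It had 199, 225 and 193 CPM in WT and 229.5, 229 and 178 CPM in flox/flox libraries. The groups overlapped, and the mean over all libraries was 209 ± 21.7 CPM (SD, n = 6). 4930470G03Rik holds Mir1896 in an exon, and 4921516A02Rik, opposite the pyridoxal kinase gene Pdxk, holds Mir6410 in an exon with a mean of 648 ± 86.0 CPM (SD, n = 6). Counts of the host gene are not counts of the mature miRNAs, which were not analysed here.

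The mature miRNAs are shown to group the hosts by what they carry, from RefSeq on build GRCm38.p6, with the seed (bases 2 to 8) in capitals. The 3p miRNAs of Mir212 and Mir132 share the seed AACAGUC, at chr11:75173443-75173464 and chr11:75173723-75173744, plus strand. Their 5p miRNAs, in the same host at chr11:75173403-75173425 and chr11:75173686-75173707, have seeds that differ from it and from each other. The seeds of mmu-miR-1896 and mmu-miR-6410, at chr13:21445209-21445230 and chr10:78434803-78434824, plus strand, differ from all of these and from each other.
mmu-miR-212-3p in 1700016P03Rik: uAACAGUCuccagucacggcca
mmu-miR-132-3p in 1700016P03Rik: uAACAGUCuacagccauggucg
mmu-miR-212-5p in 1700016P03Rik: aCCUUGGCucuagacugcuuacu
mmu-miR-132-5p in 1700016P03Rik: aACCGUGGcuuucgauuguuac
mmu-miR-1896 in 4930470G03Rik: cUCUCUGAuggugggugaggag
mmu-miR-6410 in 4921516A02Rik: uGGCUCAGggacuacucugugc

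Well-known lncRNAs without a Rik name give a reference. Malat1, a nuclear lncRNA abundant in most tissues, had 119, 263 and 176 counts in WT and 114, 123 and 96 in flox/flox libraries. The gene opposite Malat1, Gm37376, had a mean of 6717 counts. Meg3, an imprinted lncRNA of islets, had a mean of 12.8 counts, and Gm26906 opposite it 1109. Of 15 such lncRNAs 10 were measured, and together they took 0.0441% of all counts. The gene opposite was measured for 5 of the 10, and the pairs went both ways. The opposite gene had more counts for Malat1, Meg3 and Dleu2 and fewer for Kcnq1ot1 and Tug1, with the widest gaps at Malat1 and Meg3. Dleu2 had a mean of 9.67 counts and Gm26916 opposite it 35.8, while Kcnq1ot1 had 56.8 and Gm27395 32, and Tug1 had 55.5 and Morc2a 5.67. These are raw counts of genes of unequal length, given as a description.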

How the data were processed

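RNA was extracted from islets with the miRNeasy kit, and strand-specific libraries were made after rRNA depletion and sequenced as 125 bp single-end reads. The authors discarded rRNA reads, mapped the rest to mm10 with HISAT2 2.1.0, counted them per Ensembl gene with HTSeq (a minimum alignment quality, otherwise defaults), and deposited raw counts without normalization. A further deposited table with their DESeq2 comparison was not used. Of 15286 genes, 15258 were matched by identifier to GENCODE vM21 (GRCm38), which gave types, exons and strands. The smallest sum of counts of a gene was 3.

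Genes were tested with edgeR 4.0.16 in R 4.3.3 (TMM, default low-count filter with a minimum count of 10, quasi-likelihood test, Benjamini-Hochberg) for genotype alone, and for litter in a model with genotype. Standard errors are those implied by the F statistic. Totals of 611181 to 800255 assigned counts, from about 30000000 labelled reads per library, limit the precision. RPKM used the union of exons.

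Litter, given per mouse by the labels, was taken as the pairing, since WT mice were littermates of flox/flox mice. It entered the genotype comparison only as an alternative block. The genotype fold changes, standard errors and adjusted p-values of named genes are from the model without litter. Across genes, which are not independent replicates, departures from the mean of each genotype were correlated between WT and flox/flox mice. The correlation was 0.14 to 0.27 for pairs of litter 1, 0.46 for that of litter 2 and -0.35 to -0.25 across litters. Departures within a genotype cancel out, so the values of litter 2 and across litters are not independent of those of litter 1. They add no separate check of the pairing.

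The genes and lists were chosen with earlier results of these data known. Genes named are the 12 with the highest mean CPM, the 6 with the highest RPKM, up to 12 called for genotype or litter, the 3 with the smallest p-values in each direction, the 3 on either side of the count threshold, hosts of small RNAs, and genes with no gene opposite, with their opposite genes. Alternatives were DESeq2 1.42.0, RLE, upper quartile and library-size scaling, removal of the 10 most abundant genes, other filters, robust estimation, an adjusted p-value under 0.1, litter as a block or alone, each library left out, and other count minimums, overlaps and lengths.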

Additional observations from a re-analysis of the deposited data

Results flagged for a closer look

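The share of AY036118 in the counts set KO2938 apart from the other libraries. It was 41.0% there and 13.6% to 22.1% elsewhere, and the gap to the next library was 0.688 of the whole range.

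Within the 4 libraries of litter 1, the CPM of 3 of the 37 named genes had a library far from the others, by a rule that flags about 5% of groups by chance. A730081D07Rik had 820 CPM in KO2775 against 697 to 706 in the other libraries of litter 1, a gap of 0.925 of the range. 1700094J05Rik had 84.5 CPM in KO2776 against 71.1 to 72.7, a gap of 0.880 of the range. 1700016P03Rik had 199 CPM in WT2772 against 225 to 229.5, a gap of 0.837 of the range.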

How the results depend on the processing

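No Rik-named gene was called for genotype under any alternative run, including DESeq2, each library left out (range 0 to 0) and litter as a replicate block. The block gave 0 of 142 with and without it. The count of 31 genes called for litter was 18 with DESeq2 and 11 with library size only, and the cause was not tested. For litter, the share of all genes called is given for the main fit only. The counts under the alternatives therefore have no background beside them, and no excess is read from them. Where a single library of litter 2 remained, it is assumed to vary like the others. The count was 31 with RLE, 34 with upper quartile, 31 without the 10 most abundant genes, 24 when no gene was filtered out, 35 when each library had to hold 10 counts, 33 by robust estimation, 31 for litter alone and 40 when 0.1 was the threshold. With each library left out it ranged from 16 without WT2931 to 32 without WT2777. The 18 genes called by DESeq2 and the 11 called with library size only were all among the 31, as were 15 of the 16 called without WT2931, 19 of the 24 without KO2938, 29 of the 32 without WT2777, 30 of the 34 with upper quartile and 30 of the 35 when each library had to hold 10 counts.

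Of 225 refitted litter fold changes of named genes, 206 kept their side of the threshold, 19 no longer passed and 0 changed sign. All were of genes that had passed for litter in the main fit, and the refits share its libraries. Keeping the sign and the call is thus favoured by the choice, and nothing is read from it. A minimum count of 25 gave 222 genes and one of 100 gave 88, by construction of the rule. The number with an opposite exon was 130 at 50 bases of overlap or more, 105 at 10% of exon bases, 141 by gene spans and 125 with protein-coding genes only. RPKM moved by more than 1 SD for all 6 named genes when totals left out the 10 most abundant genes, to 915 for D930015M05Rik, and for 1700099I09Rik also with the longest transcript as length, to 538.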
